A study of Mus musculus with 4 samples.

Results

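The genes described here make, sense, take up and export sterols: 32 genes chosen by name, of the 19171 genes listed. They comprise 7 genes of the mevalonate steps, 12 of the later sterol steps, 7 regulators and 6 genes of uptake or efflux. Of the 32, 31 were found under the same symbol, and Msmo1 was found by its Entrez identifier (66234), under the older symbol Sc4mol.

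RNA was sequenced from primary cells of the skull vault (calvaria) of C57BL/6 mice at postnatal day 10, released from bone with collagenase and grown in serum-containing medium. In all 4 libraries the cells carried a floxed miR-17 cluster and were null for the miR-106b cluster (mir17fl/fl:106b-/-). In 2 libraries the cells had received an adenovirus expressing Cre, the recombinase that removes floxed DNA, and in 2 an adenovirus expressing YFP, a fluorescent protein, with RNA taken 3 days later and, per the labels, over 80% of cells infected. The comparison of Cre with YFP asks what changed when the miR-17 cluster was deleted in cells that already lacked the miR-106b cluster, and the inserts of the viruses differed along with the deletion, so the effects of these cannot be told apart.

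Cells build cholesterol from acetyl-CoA through mevalonate, isoprenoid pyrophosphates, squalene and lanosterol. When membrane sterol is low, SCAP escorts the transcription factor SREBP2 from the endoplasmic reticulum to the Golgi for cleavage, and the released factor activates the genes of synthesis together with Insig1 and Stard4. INSIG proteins hold SCAP back when sterol is plentiful. Oxysterols activate the nuclear receptors LXRα and LXRβ, which raise the exporters ABCA1 and ABCG1 and the ubiquitin ligase MYLIP, which destroys lipoprotein receptors.

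Levels are FPKM, which scale reads to transcript length and library total, and were similar in sum between libraries (458756 to 471021). The host transcript of the targeted cluster, Mir17hg, was at 3.29 and 3.91 FPKM with YFP and at 7.35 and 8.49 with Cre. It was higher with Cre, and since this value does not measure the miRNAs cut from it, it does not check the deletion. Among osteoblast markers, Col1a1 was abundant (1684 to 1778 FPKM) and Runx2 was at 10.3 to 12.1 FPKM. The later markers Ibsp and Bglap were too low to test. Ibsp was at 0.39 to 0.63 FPKM, while Bglap was at 0 in both YFP libraries and at 1.27 and 0.91 FPKM with Cre. Alpl (1.53 to 2.49 FPKM) and Sp7 (1.81 to 2.43 FPKM) did not pass, with log2 changes of 0.25 and -0.18. Spp1, another osteoblast marker, was at 3126 to 3919 FPKM and rose by 0.29 on the log2 scale with Cre, while Col1a2 fell by 0.29. Of the adipocyte markers, Fabp4 (6.52 to 10.11 FPKM) rose by 0.44, Pparg (2.81 to 4.28) fell by 0.41 and Lpl (5.53 to 6.79) did not pass. Adipoq and Cidec were at 0 with YFP and at most at 0.07 and 0.03 FPKM with Cre, and no endothelial marker exceeded 1.96 FPKM. The labels do not state whether replicates were separate cultures, and the p-values then cover only the spread of these libraries, which may be technical.

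**Figure D1:**
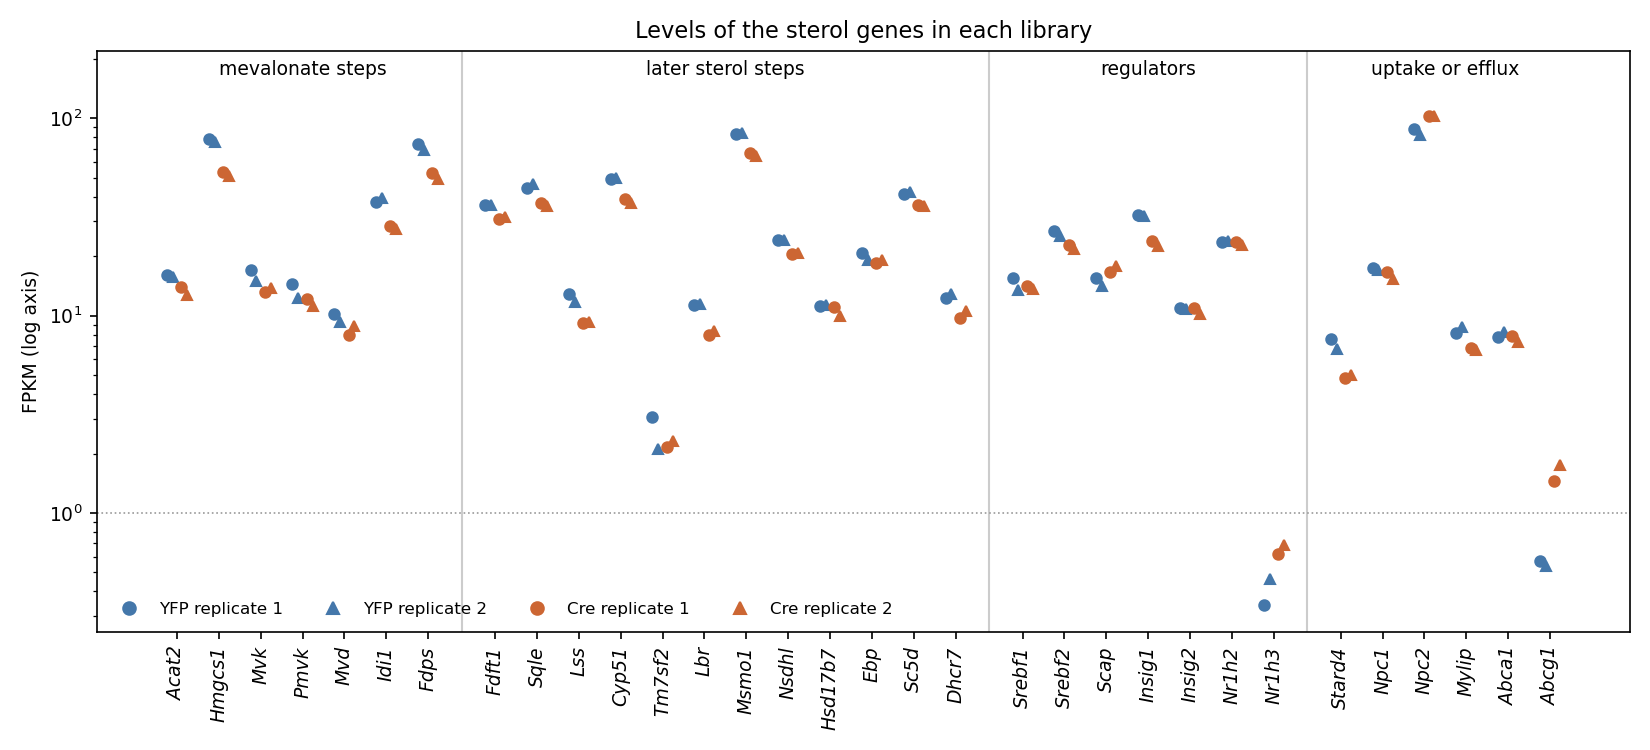
FPKM (log axis) of the 32 sterol genes in each library, with YFP in blue and Cre in orange, circles for replicate 1 and triangles for replicate 2, and a dotted line at 1 FPKM. Hmgcs1, Fdps, Idi1 and Insig1 lie lower in both Cre libraries, Abca1 overlaps between the groups, and Abcg1 and Nr1h3, the lowest pair, lie higher with Cre.

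Most transcripts of the sterol synthesis enzymes were lower with Cre. The FPKM of the 19 synthesis genes added up to 597.4 and 588.8 with YFP and to 470.6 and 459.1 with Cre, a ratio of 0.784. All 19 had a negative log2 change, 14 fell past the threshold (limma adjusted p at or below 0.05) and 0 rose. Over all 12046 genes tested, 16.3% were called lower and 16.6% higher (32.9% in either direction), and 53.1% had a negative log2 change. The sterol genes were chosen with earlier results of these data known, so no test of the set was run. The median log2 change was -0.23 for the 19 synthesis genes, -0.22 for the 31 sterol genes tested and -0.01 for all tested genes. In RNA from whole cultures, fewer cells of a type and less RNA per cell cannot be told apart. Both Cre libraries were below both YFP libraries in 17 of the 19, against 35.4% of all tested genes. With 2 libraries a group, an exact permutation test of a single gene cannot go below 0.333 (two-sided), so the calls rest on the fit across genes.

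The mevalonate steps turn acetyl-CoA into farnesyl pyrophosphate. Of their 7 genes, 5 fell, and the sum of their FPKM was 248.0 and 236.7 with YFP and 181.9 and 173.7 with Cre, a ratio of 0.734. Hmgcs1, which makes HMG-CoA, was at 78.7 and 75.8 FPKM with YFP and at 53.4 and 50.8 with Cre. The Cre libraries were both well below the YFP libraries. The log2 change was -0.56 (SE 0.05, limma adjusted p = 1.43e-05), the largest fall among the sterol genes, and 0.905% of all tested genes had a more negative change. Fdps, which condenses isoprene units into farnesyl pyrophosphate, was at 74.2 and 69.3 FPKM with YFP and at 52.8 and 49.0 with Cre. It was lower in both Cre libraries, with a log2 change of -0.49 (SE 0.05, limma adjusted p = 7.33e-05). Idi1, the isomerase that prepares those units, was at 37.5 and 39.5 FPKM with YFP and at 28.4 and 27.5 with Cre. Again the groups did not overlap, and the log2 change was -0.45 (SE 0.05, limma adjusted p = 6.99e-05).

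The other mevalonate genes moved less. Acat2, the cytosolic thiolase that opens the pathway, had 16.0 and 15.7 FPKM with YFP and 13.9 and 12.7 with Cre. It fell by 0.23 on the log2 scale (limma adjusted p = 0.00998), but leaving out Cre replicate 2 ended the call (adjusted p = 0.128). Its close paralog Acat3 was listed at 0.19 to 0.47 FPKM, and how reads shared by the pair were counted is not given in the sources used here. The kinases Mvk and Pmvk, which phosphorylate mevalonate in turn, stood at 17.1 and 14.9 FPKM and at 14.4 and 12.2 FPKM with YFP, where replicate 1 was the higher. With Cre, Mvk was at 13.3 and 13.8 FPKM and Pmvk at 12.2 and 11.1. Mvk fell by 0.22 (limma adjusted p = 0.0231), and leaving out YFP replicate 1 (adjusted p = 0.132), Cre replicate 1 (0.157) or Cre replicate 2 (0.101) ended its call. So did testing with no filter on low values (0.0772) or with neither a trend nor robust estimates (0.0626). Pmvk had a log2 change of -0.18 (95% interval -0.35 to -0.0019, limma adjusted p = 0.112), which was -0.28 without YFP replicate 2 (adjusted p = 0.00791). Mvd, the decarboxylase that yields isopentenyl pyrophosphate, was at 10.2 and 9.29 FPKM with YFP and at 7.99 and 8.82 with Cre. Its log2 change of -0.19 did not pass, just above the threshold (limma adjusted p = 0.0507). It passed in limma with a mean FPKM of at least 5 (adjusted p = 0.0371) and with median-of-ratios scaling (0.0439). The same held with libraries scaled to the same sum (0.0252), and without YFP replicate 2.

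The later steps commit farnesyl pyrophosphate to sterols. Of their 12 genes, 9 fell and 0 rose, and the sum of their FPKM was 349.4 and 352.0 with YFP and 288.6 and 285.4 with Cre, a ratio of 0.818. Msmo1 starts the removal of methyl groups that follows the Cyp51 step. It was the most abundant of the 12, at 82.8 and 84.2 FPKM with YFP and 66.4 and 64.1 with Cre. Each Cre library was below each YFP library (log2 change -0.35, SE 0.04, limma adjusted p = 1.95e-04). Cyp51, the lanosterol demethylase, was at 48.99 and 50 FPKM with YFP and at 39.0 and 37.4 with Cre, a log2 change of -0.37 (SE 0.05, limma adjusted p = 1.88e-04). Sqle, the squalene epoxidase, was at 44.2 and 46.2 FPKM with YFP and at 37.0 and 35.8 with Cre, a log2 change of -0.31 (SE 0.05, limma adjusted p = 6.60e-04). Lss, which closes the sterol rings, was at 12.9 and 11.8 FPKM with YFP and at 9.19 and 9.28 with Cre, a log2 change of -0.38 (SE 0.06, limma adjusted p = 7.82e-04). These 4 genes, Hmgcs1, Fdps, Idi1 and Lbr were called lower with every library left out in turn and in every other setting tried.

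Lbr and Tm7sf2 encode the sterol reductases that act after Cyp51, and LBR also anchors chromatin to the inner nuclear membrane. Lbr was at 11.4 FPKM in both YFP libraries and at 8.0 and 8.40 with Cre, the largest fall of the later steps (log2 change -0.43, SE 0.06, limma adjusted p = 2.37e-04). Tm7sf2 was at 3.07 and 2.10 FPKM with YFP and at 2.15 and 2.31 with Cre. Its groups overlapped (log2 change -0.14, 95% interval -0.42 to 0.14, limma adjusted p = 0.431), and the log2 change was -0.33 without YFP replicate 2 (adjusted p = 0.0188) and 0.06 without YFP replicate 1 (adjusted p = 0.697). Lbr was the more abundant reductase, by FPKM, in every library.

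Dhcr7, whose enzyme makes cholesterol in the last step, was at 12.4 and 12.8 FPKM with YFP and at 9.73 and 10.5 with Cre. It fell by 0.29 on the log2 scale (limma adjusted p = 0.00353), but leaving out Cre replicate 1 ended the call (adjusted p = 0.0541). Fdft1 (squalene synthase), Nsdhl (a dehydrogenase of the methyl removal) and Sc5d (a sterol desaturase) fell by 0.21, 0.22 and 0.21 (limma adjusted p = 0.00551, 0.00509 and 0.00432). Their calls depended on a Cre library: Fdft1 had an adjusted p of 0.0698 without Cre replicate 1, Sc5d of 0.0624 without Cre replicate 2, and Nsdhl of 0.0543 and 0.0547 without either. Exons of Fdft1 share 774 bases with exons of Ctsb on the opposite strand (GENCODE M21). Ctsb, a lysosomal protease gene, rose from 275.5 ± 4.9 to 348.8 ± 0.9 FPKM, and without knowledge of strand use the reads of this pair cannot be told apart. Cyp51 shares 166 bases with Akap9, and Tm7sf2 shares 532 with Vps51 on its own strand. The same limit holds for other sterol genes. Fdps shares 1124 bases with Gm43738 on its own strand. On the opposite strand, Scap shares 985 with 5830462I19Rik, Hmgcs1 557 with Gm48342, Lbr 440 with Dnah14 and Lss 381 with 4930483K19Rik. Also on the opposite strand, Npc1 shares 511 with Rmc1 and Idi1 323 with Gm48574. Further overlaps of Srebf1, Npc1, Lbr and Nr1h3 were of 34 to 109 bases.

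Hsd17b7 and Ebp, with Tm7sf2, were the later genes that did not pass. Hsd17b7, a ketosteroid reductase of the methyl removal, was at 11.2 and 11.3 FPKM with YFP and at 11.1 and 10.0 with Cre (log2 change -0.09, 95% interval -0.22 to 0.045, limma adjusted p = 0.292). Ebp, a sterol isomerase, was at 20.8 and 19.2 FPKM with YFP and at 18.5 and 19.3 with Cre, and its groups overlapped (log2 change -0.08, 95% interval -0.20 to 0.04, limma adjusted p = 0.302). Neither passed in any setting tried, and the intervals leave room for a small fall.

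**Figure D2:**
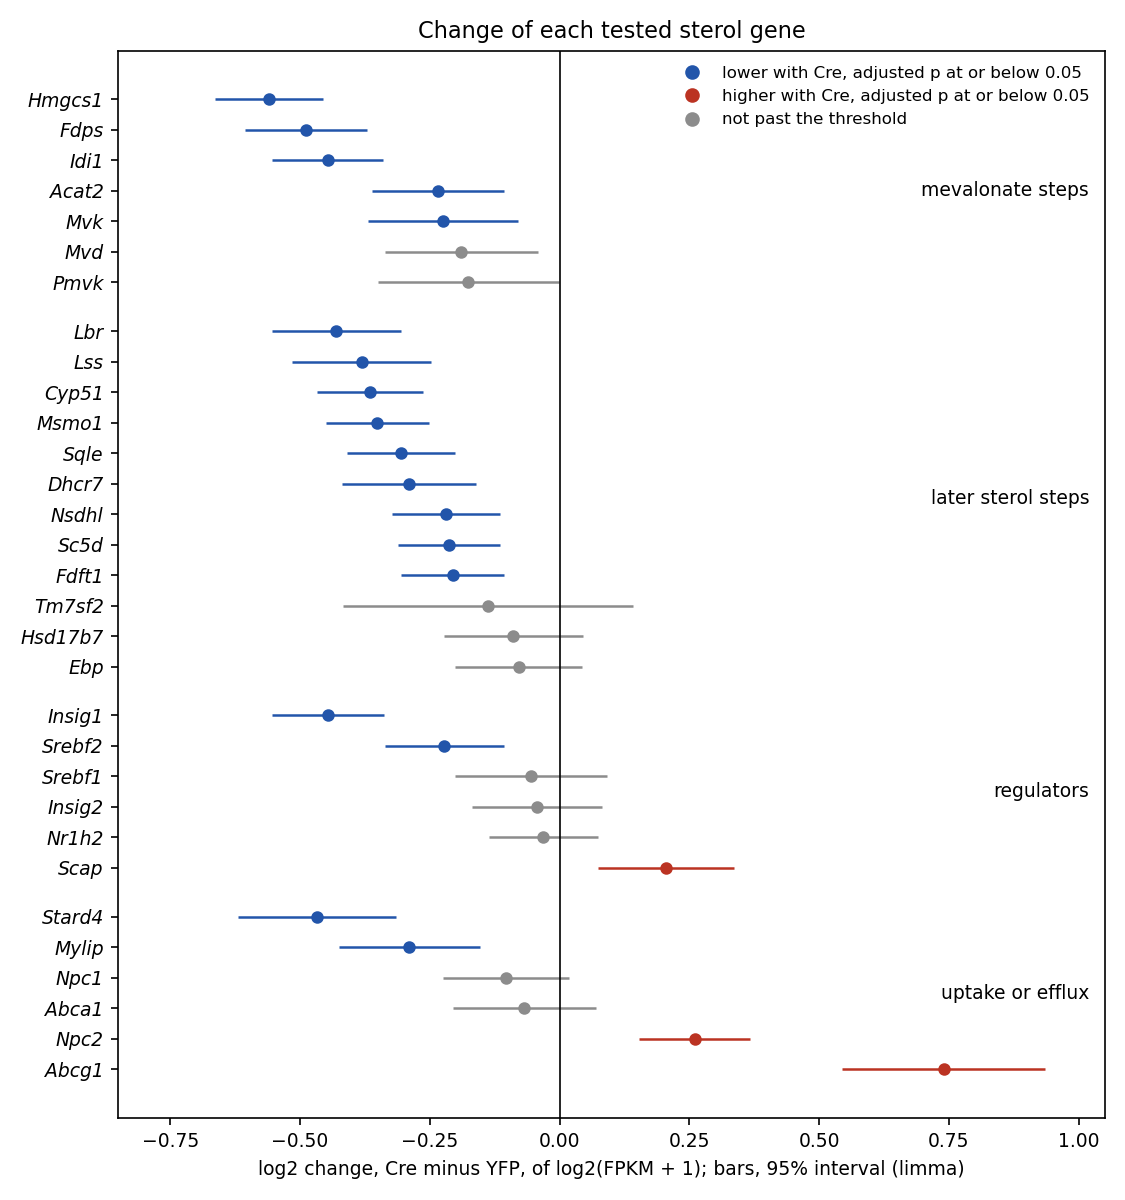
Log2 change, Cre minus YFP, of log2(FPKM + 1) for the 31 sterol genes tested, by role, with 95% intervals from limma, and colours for lower, higher and not past the threshold. Every synthesis gene lies left of 0, from -0.56 for Hmgcs1 to -0.08 for Ebp, while Scap, Npc2 and Abcg1 lie to the right.

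Of the 7 regulators, 2 fell, 1 rose, 3 did not pass and 1 was too low to test, where 16.3% of all tested genes were called lower and 16.6% higher. Insig1, itself a target of SREBP2, was at 32.3 and 31.95 FPKM with YFP and at 24 and 22.6 with Cre. It fell in both Cre libraries to 0.726 of its YFP mean (log2 change -0.45, SE 0.05, limma adjusted p = 7.58e-05). Its paralog Insig2 was at 10.96 and 10.83 FPKM with YFP and at 10.89 and 10.20 with Cre, overlapping (log2 change -0.04, 95% interval -0.17 to 0.08, limma adjusted p = 0.598). The intervals of Insig1 (-0.55 to -0.34) and Insig2 are apart, though the difference between them was not tested.

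Of the SREBP genes, Srebf2 passed and Srebf1 did not. Srebf2, which encodes the factor for sterol genes and carries miR-33 in an intron, was at 27.0 and 25.2 FPKM with YFP and at 22.7 and 21.8 with Cre. The Cre libraries were the lower pair (log2 change -0.22, SE 0.05, limma adjusted p = 0.00779). Leaving out Cre replicate 2 ended the call (adjusted p = 0.103). Srebf1, whose products act mainly on fatty acid genes, was at 15.5 and 13.5 FPKM with YFP and at 14.2 and 13.6 with Cre. Its Cre values lay between the YFP values (log2 change -0.06, 95% interval -0.20 to 0.09, limma adjusted p = 0.561). The intervals of Srebf1 and Srebf2 (-0.34 to -0.11) overlap, and the difference between their changes was not tested.

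Scap, the escort of the SREBPs, was the regulator called higher, at 15.5 and 14.2 FPKM with YFP and at 16.6 and 17.8 with Cre. Both Cre libraries were higher (log2 change 0.20, SE 0.06, limma adjusted p = 0.0224). The call ended on leaving out YFP replicate 2 (adjusted p = 0.105), Cre replicate 1 (0.0582) or Cre replicate 2 (0.205). It also ended with no filter on low values (0.0684), with neither a trend nor robust estimates (0.0584) and after removal of the GC and length trend (0.0789). Nr1h2, which encodes LXRβ, was at 23.6 and 23.8 FPKM with YFP and at 23.5 and 22.8 with Cre (log2 change -0.03, 95% interval -0.14 to 0.07, limma adjusted p = 0.655). Nr1h3, for LXRα, was at 0.34 and 0.46 FPKM with YFP and at 0.62 and 0.69 with Cre, below the filter. Tested without a filter, it had a log2 change of 0.24 (limma adjusted p = 0.0711).

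Genes of uptake and efflux went both ways, with 2 lower, 2 higher and 2 not past the threshold. Over all tested genes, 16.3% were called lower and 16.6% higher, and 6 genes are too few to set against these shares. Stard4, a carrier of cholesterol through the cytosol and a target of SREBP2, was at 7.61 and 6.79 FPKM with YFP and at 4.85 and 5.00 with Cre. It was lower in both Cre libraries, at 0.684 of the YFP mean (log2 change -0.47, SE 0.07, limma adjusted p = 4.96e-04). Mylip, the ligase that removes lipoprotein receptors, was at 8.19 and 8.80 FPKM with YFP and at 6.86 and 6.67 with Cre. The groups did not overlap (log2 change -0.29, SE 0.06, limma adjusted p = 0.00463), but leaving out Cre replicate 2 ended the call (adjusted p = 0.0586).

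Npc1 and Npc2 act in turn to let cholesterol out of lysosomes, and of their genes Npc2 passed and Npc1 did not, with the difference between their changes not tested. Npc2, the soluble carrier, was at 88.8 and 82.7 FPKM with YFP and at 103.0 and 102.6 with Cre. It was higher in both Cre libraries (log2 change 0.26, SE 0.05, limma adjusted p = 0.00207). Npc1, the membrane protein, was at 17.38 and 17.04 FPKM with YFP and at 16.6 and 15.3 with Cre (log2 change -0.10, 95% interval -0.22 to 0.02, limma adjusted p = 0.174).

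Of the exporter genes, Abcg1 passed and Abca1 did not, and the difference between their changes was not tested. Abca1, which loads cholesterol onto apolipoprotein A-I, was at 7.82 and 8.30 FPKM with YFP and at 7.90 and 7.39 with Cre. Its groups overlapped, with a log2 change of -0.07 (95% interval -0.21 to 0.07, limma adjusted p = 0.443). Abcg1, which passes cholesterol to high-density lipoprotein, was at 0.57 and 0.54 FPKM with YFP and at 1.46 and 1.74 with Cre. At these low levels it was 2.88 times its YFP mean, the largest rise among the sterol genes (log2 change 0.74, SE 0.09, limma adjusted p = 1.32e-04), and it passed in each of the 13 settings that tested it. Abcg1 met the filter of 1 FPKM in 2 libraries only through the Cre libraries, where it is high, and with no filter its adjusted p was 0.00319. The log2 change of Abcg1 was 1.37 with a pseudocount of 0.1, since the pseudocount of 1 weighs on low genes.

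Npc2, Abcg1 and Nr1h3, which all lay higher with Cre, are high in macrophages, so markers of these cells were examined. Npc1 and Abca1, which act beside Npc2 and Abcg1, did not pass (log2 change -0.10 and -0.07). Of 14 macrophage markers, 11 were tested, 6 rose and 0 fell, against 16.6% higher and 16.3% lower of all tested genes. The markers were listed with earlier results of these data known. None was at 0 in all libraries. Their FPKM summed to 106.8 and 109.6 with YFP and to 140.0 and 150.6 with Cre. Lyz2 (lysozyme), at 75.1 to 79.8 and 99.1 to 104.8 FPKM, made up most of that sum. Tyrobp rose by 0.38 and Laptm5 by 0.35 on the log2 scale. The 5 that did not pass were Cd68, C1qa and Cd14, with log2 changes of 0.69, 0.26 and 0.08, and C1qb and C1qc, with -0.08 and -0.0050. The leukocyte marker Ptprc was at 0.27 to 0.37 FPKM, Adgre1 at 0.54 to 0.96 and Aif1 at 0.03 to 0.34. The part of macrophages in the rises of Npc2 and Abcg1 was not tested.

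Genes of cell division fell together with those of sterol synthesis. All 12 markers of G2 and mitosis were called lower, against 16.3% of all tested genes. This list was made with earlier results of these data known. Their FPKM summed to 381.3 and 383.3 with YFP and to 269.4 and 272.8 with Cre, a ratio of 0.709. Ccna2, Ccnb2 and Ccnb1, which encode cyclins, fell by 0.59, 0.57 and 0.55 on the log2 scale. The part of cell division in the fall of the sterol genes was not tested.

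Genes next to the sterol pathway were counted for comparison, from lists made with earlier results of these data known. Of 12 fatty acid genes driven by SREBP, 6 fell and 0 rose, against 16.3% lower and 16.6% higher of all tested genes. Their median log2 change was -0.20. Among them, the desaturase genes Scd2 and Fads2 fell by 0.39 and 0.26 and the elongase gene Elovl6 by 0.41. Scd1 (49.3 and 46.32 FPKM with Cre, 47.23 and 49.79 with YFP) and Fasn (18.05 and 17.98 FPKM with Cre, 19.8 and 18.32 with YFP) did not pass. Of the 8 genes of SREBP processing and of the degradation of sterol enzymes, 0 were called by limma after adjustment. The smallest p-value among them was that of the ligase gene Rnf139 (log2 change -0.16, limma adjusted p = 0.0731). Next was the protease gene Mbtps2 (-0.15, limma adjusted p = 0.102).

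Of 13 genes in the branches that draw isoprenoids from farnesyl pyrophosphate, 2 fell and 1 rose, where 32.9% of all tested genes were called. Their median log2 change was -0.0055. Pdss1, for the side chain of coenzyme Q, fell by 0.36 and Pggt1b, a prenyltransferase subunit, by 0.23, while the methyltransferase gene Icmt rose by 0.21. Of 19 tested genes of esterification, storage and transfer, 4 fell and 2 rose, a share near the 32.9% called over all tested genes. The lipid carrier Scp2 fell by 0.25 and Stard5 by 0.22, and Lipa, the lysosomal acid lipase that frees cholesterol from its esters, rose by 0.17.

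Other receptor and LXR-related genes, in short lists, went both ways, where 16.3% of all tested genes were called lower and 16.6% higher. Vldlr, a lipoprotein receptor, was at 8.49 and 8.05 FPKM with YFP and at 5.90 and 5.27 with Cre (log2 change -0.49, limma adjusted p = 3.19e-04). The receptor chaperone gene Lrpap1 rose by 0.27. Of 5 further LXR targets, Apoe and Arl4c rose by 0.65 and 0.59, Smpdl3a fell by 0.16 and 2 did not pass. Apoe, an apolipoprotein that macrophages also make, was at 23.5 and 23.1 FPKM with YFP and at 35.9 and 38.6 with Cre. Of 5 oxysterol and bile acid enzymes, Cyp7b1 fell by 0.41, 1 was called higher and 3 did not pass, among them Cyp39a1 with a log2 change of 0.12. The one called higher, Cyp27a1, was at 0.50 and 0.73 FPKM with YFP and at 1.47 and 1.52 with Cre, and it met the filter only through the Cre libraries.

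**Figure D3:**
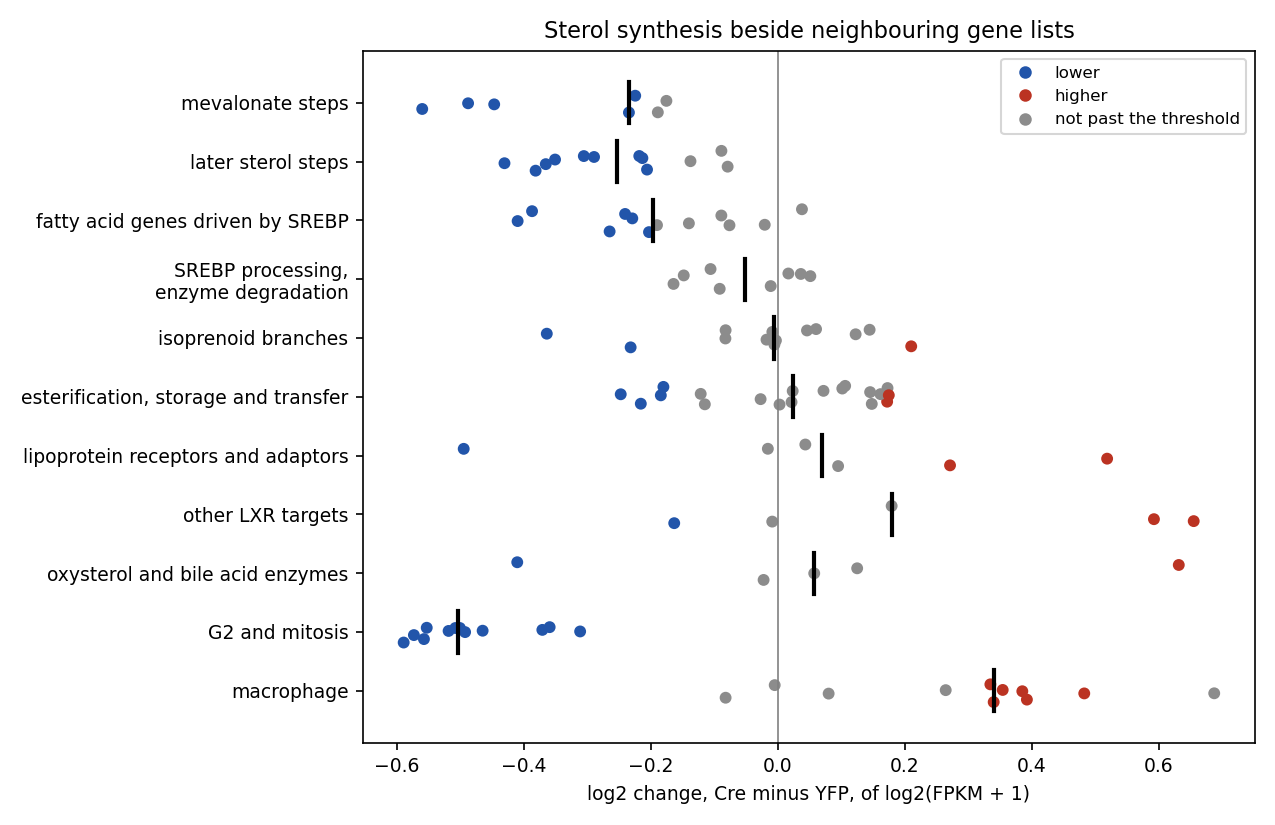
Log2 change, Cre minus YFP, of log2(FPKM + 1) for each tested gene (points) and the median (black bar) in the sterol synthesis steps, 7 neighbouring lists and 2 marker lists. The medians of the mevalonate and later sterol steps are -0.23 and -0.25, that of the fatty acid genes -0.20 and that of the isoprenoid branches -0.0055.

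The promoters of 26 of the 32 genes, from 250 bases before to 50 bases after the start, were searched on both strands (RefSeq, GRCm38.p6). SREBPs bind sterol response elements, usually beside a box for the factor NF-Y, so these motifs were looked for first. The NF-Y box CCAAT was found in 15 of the 16 synthesis genes with a promoter sequence, against 41.1% of all 27025 genes with one and 43.4% of the tested genes. Of the 18 genes that fell and the 3 that rose, 14 and 2 had a promoter sequence, and the box was in 13 and 1 of these. It was in 7 of the other 10, which include Nr1h3, not tested. The Sp1 box GGGCGG was found in 15 of the 16 synthesis genes, against 38.2% of all genes and 70.4% of the tested genes. For the sterol response element, only exact matches to 1 fixed form were counted. That form was in 0 of the 26 (0.27% of all genes). Its shorter core TCACNCCAC, which lies within it, was in Hmgcs1 (1.44% of all genes). Elements that differ from these forms would be missed. The counts therefore do not show that the promoters lack a sterol response element. The E-box CACGTG was in 6 of the 26 (8.09% of all genes, 12.1% of the tested genes). The LXR direct repeat, also counted only as exact matches to 1 fixed form, was in 0 (0.0148% of all genes), with the same limit.

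Shown here are the promoters of the 4 genes with the largest falls among those with a promoter sequence in the table, read 5′ to 3′ on the gene's strand. Capitals mark the NF-Y box (CCAAT, or ATTGG for the other strand) and, in Hmgcs1, the core of the sterol response element, which begins at position -137 from the start. Hmgcs1 lies at chr13:119690101-119690400 (+ strand), Idi1 at chr13:8885356-8885655 (+), Insig1 at chr5:28071162-28071461 (+) and Lbr at chr1:181842352-181842651 (- strand), with 4, 2, 1 and 2 NF-Y boxes.
Hmgcs1: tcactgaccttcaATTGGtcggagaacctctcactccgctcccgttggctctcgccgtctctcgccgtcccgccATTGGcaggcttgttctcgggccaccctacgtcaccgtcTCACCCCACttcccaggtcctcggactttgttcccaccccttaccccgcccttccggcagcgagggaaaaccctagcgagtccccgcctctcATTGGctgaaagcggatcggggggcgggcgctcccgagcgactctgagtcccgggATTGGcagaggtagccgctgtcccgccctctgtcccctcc
Idi1: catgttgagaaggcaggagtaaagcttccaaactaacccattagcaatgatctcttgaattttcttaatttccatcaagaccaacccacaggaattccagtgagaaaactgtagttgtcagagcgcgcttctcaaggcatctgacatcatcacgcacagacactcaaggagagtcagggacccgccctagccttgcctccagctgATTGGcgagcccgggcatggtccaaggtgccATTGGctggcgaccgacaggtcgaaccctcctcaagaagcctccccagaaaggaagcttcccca
Insig1: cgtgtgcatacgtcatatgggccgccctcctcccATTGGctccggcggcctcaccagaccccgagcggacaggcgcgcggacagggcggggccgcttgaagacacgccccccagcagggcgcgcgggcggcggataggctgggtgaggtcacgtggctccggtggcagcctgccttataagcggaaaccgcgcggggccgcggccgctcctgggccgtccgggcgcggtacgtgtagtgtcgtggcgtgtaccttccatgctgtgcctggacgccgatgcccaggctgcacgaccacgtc
Lbr: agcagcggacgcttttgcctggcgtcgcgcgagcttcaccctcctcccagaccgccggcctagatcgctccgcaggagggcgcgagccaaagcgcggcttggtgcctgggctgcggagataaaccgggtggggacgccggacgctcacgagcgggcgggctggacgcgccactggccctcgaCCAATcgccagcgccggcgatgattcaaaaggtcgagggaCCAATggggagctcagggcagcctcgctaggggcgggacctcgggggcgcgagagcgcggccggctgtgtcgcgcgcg

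The deleted miRNAs repress transcripts through matches to their seed, bases 2 to 8, in the 3′ UTR. The 6 miRNAs of the miR-17 cluster (RefSeq, GRCm38.p6, chr14:115043684-115044496, + strand) are printed with the seed in capitals. The first pair shares a seed with miR-106b and miR-93 of the other cluster, and miR-92a shares one with miR-25.
miR-17-5p: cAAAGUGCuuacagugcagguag
miR-20a-5p: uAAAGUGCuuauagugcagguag
miR-18a-5p: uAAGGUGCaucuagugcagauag
miR-19a-3p: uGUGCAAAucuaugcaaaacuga
miR-19b-3p: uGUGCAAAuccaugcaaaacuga
miR-92a-3p: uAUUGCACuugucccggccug

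Of the 32 sterol genes, 12 held a match to at least 1 of the 4 seeds in the longest annotated 3′ UTR (GENCODE M21), against 35.7% of 11539 tested genes. Of these 12, 8 were lower with Cre, 1 was higher and 3 did not pass. Of the 20 without a match, 10 were lower, 2 were higher, 7 did not pass and 1 was not tested. Over all tested genes, 16.3% were called lower and 16.6% higher. The share called among all tested genes with a match was not counted, so this split is not read as a result about the sites. The miR-17 site GCACTTT was in 3 (15.3% of tested genes), the miR-18 site GCACCTT in 6 (10.1%), the miR-19 site TTTGCAC in 6 (14.3%) and the miR-92 site GTGCAAT in 5 (7.84%).

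Matches followed by an A, the strongest class of site, are printed with 11 bases on either side and the match in capitals. Abca1, a reported target of miR-106b, holds the miR-17 match, on chromosome 4, and its level overlapped between the groups. Abcg1 (chromosome 17), the member with the largest rise, holds a miR-19 match. Mylip (chromosome 13), which fell, holds both a miR-19 and a miR-92 match. Sc5d (chromosome 9), which fell, and Srebf1 (chromosome 11), which did not pass, hold miR-18 matches.
Abca1, miR-17 family site: cctcattccaaGCACTTTatgctgtctgt
Abcg1, miR-19 family site: ttatctgtgatTTTGCACatgcactctcg
Mylip, miR-19 family site: gcatttgtttcTTTGCACagacattttgt
Mylip, miR-92 family site: gacctcatcggGTGCAATactagctaagt
Sc5d, miR-18 family site: cctatacagagGCACCTTactctctgggg
Srebf1, miR-18 family site: ttgctctgtagGCACCTTagtggcttttc

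The calls were set side by side over 14 settings, the reported one and 13 alternatives. In 12 genes the call held in every setting that tested them, 10 of them lower (Hmgcs1, Fdps, Idi1, Sqle, Lss, Cyp51, Lbr, Msmo1, Insig1 and Stard4) and 2 higher (Npc2 and Abcg1). The number called lower was 18 as reported and 12 to 21 with 1 library left out, lowest without Cre replicate 2.

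**Figure D4:**
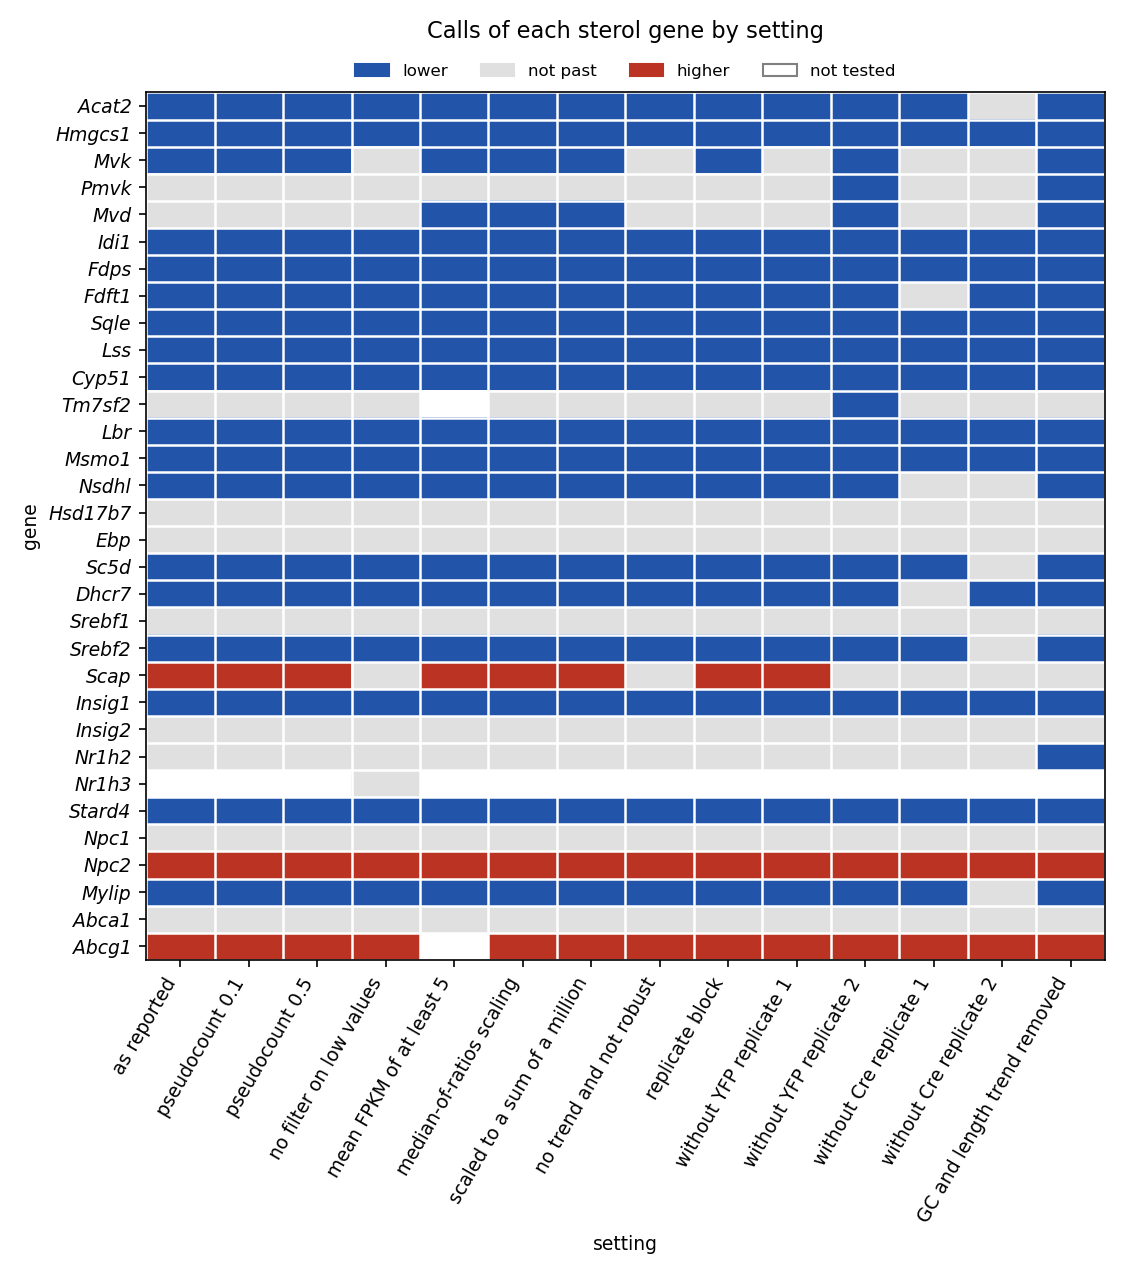
Calls of each sterol gene (rows) in each setting (columns), with blue for lower, red for higher, grey for not past the threshold and white for not tested. The 10 genes lower in every setting form unbroken blue rows, and the columns without Cre replicate 1 and without Cre replicate 2 hold the most losses, 5 and 7.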

How the data were processed

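RNA was measured in 2 Cre and 2 YFP libraries. The authors deposited FPKM values to 2 decimals, with 1 column per library matched through its description. Per the labels' protocols, polyA RNA was sequenced single-end on the BGISEQ-500. Per the submitters' processing notes, the tools include Bowtie 02.2.5 and the build is mm8. Which program gave the FPKM, with which annotation and whether by strand, is not given in the sources used here. Without read counts, no counting error can be attached and depth is unknown.

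Genes that reached 1 FPKM in 2 or more libraries (12046 genes, 31 of the 32 sterol genes) were compared as log2(FPKM + 1) in limma 3.58.1 (R 4.3.3, trend and robust empirical Bayes, two-sided). P-values were adjusted by Benjamini-Hochberg over all tested genes, with a threshold of 0.05. This scale understates the change of low genes. The procedure was tested on simulated data, where the false share was under or over the threshold depending on how variances were drawn. Far fewer genes were changed there than were called in the data, so that share does not carry over. The false share among the calls is therefore uncertain, and so are calls near the threshold. Alternatives were other pseudocounts, filters, scalings and variance settings, a replicate block, each library left out and, chosen after seeing the data, removal of the GC and length trend. Named are all sterol genes and up to 3 genes with the smallest p in each other list, of which 1 is not reported here. Added after their values were seen were Scd1, Fasn, Acat3, genes sharing exons and further cell type markers. The members and lists were chosen with earlier results of these data known. Sequences are from RefSeq and UTRs and exons from GENCODE M21, both on GRCm38 and not on mm8.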

Additional observations from a re-analysis of the deposited data

How the results depend on the processing

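The count of 3961 genes called among all tested ranged from 1872 to 3560 with 1 library left out, and of those 1872 and of the 2384 without Cre replicate 1, 1829 and 2308 were also called with all libraries. In the other settings it was 3032 to 4118. The median log2 change of the tested sterol genes, -0.22, was -0.24 with every library scaled to the same sum, -0.28 once the trend with GC and length was removed, and -0.25 to -0.21 with 1 library left out. The count of sterol genes called lower was 17 to 21 in the settings that kept all libraries, and that of genes called higher was 2 or 3 in every setting. No called sterol gene reversed its direction. After removal of that trend, Pmvk, Mvd and Nr1h2 were also called lower (adjusted p = 0.0207, 0.00361 and 0.0477). Replicate numbers are shared between groups, but nothing in the labels says that they pair cultures. Across genes, the deviations of same-numbered libraries had a correlation of -0.0313, and with a replicate block 18 sterol genes were called lower and 3 higher, with 3533 genes called in all. Fits without a library leave 1 sample in a group, which is assumed to vary like the others. Depth is unknown, which limits what can be said of genes near 1 FPKM, such as Abcg1 and Nr1h3.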
